A study of Mus musculus with 6 samples.

Results

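A group of 10 transcription factor genes that mark the position and lineage of cells in the heart, the great vessels and the limb were followed in cultured mouse aortic cells, namely Hand1, Hand2, Gata4, Gata6, Tbx2, Tbx3, Tbx5, Tbx18, Tbx20 and Tcf21. They were taken by symbol, and all 10 were found among the 25683 genes of the deposited table. The labels call the cells a primary vascular smooth muscle line of mouse aorta. Of the 6 libraries, 3 carry the genotype label Nt5e Knock-out (libraries 1, 2 and 3) and 3 the label Nt5e-WT (libraries 4, 5 and 6). Nt5e encodes CD73, the surface enzyme that turns AMP into adenosine. Both genotypes had the same handling, growth in medium with 10% fetal bovine serum and then 48 h at 0.5% serum, a step meant to induce smooth muscle differentiation. The labels give no mouse strain or age, do not describe the Nt5e allele and do not say whether libraries came from separate animals or cultures. The library titles share stems, KO2 for libraries 1 and 2, KO5 for library 3, WT10 for library 4 and WT11 for libraries 5 and 6, whose meaning the labels do not give. Values of n = 3 therefore count libraries, and a p-value reflects only how far these libraries spread, which may be technical. Where 6 values follow each other, those before "against" are knock-out libraries 1, 2 and 3 and those after it wild-type libraries 4, 5 and 6.

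HAND, GATA and T-box proteins, together with TCF21, are DNA-binding regulators that are switched on in particular fields of embryonic mesoderm and that often stay on in the adult descendants of those fields. HAND1, HAND2 and TCF21 are basic helix-loop-helix (bHLH) proteins that bind the E-box as dimers with E-proteins such as TCF3, TCF4 and TCF12, and ID proteins compete for those partners. GATA4 and GATA6 bind the GATA motif with cofactors of the FOG family. T-box proteins bind a common half-site, TBX2 and TBX3 mostly as repressors and TBX5, TBX18 and TBX20 with activating or repressing roles that depend on the tissue. In the vessel wall and the layers around the heart, GATA6 is known from smooth muscle, TBX18 from mural and epicardial cells, TCF21 from epicardium and adventitial fibroblasts, and HAND2 from neural crest and cardiac mesenchyme.

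Each library held between 19919095 and 23669252 exon reads. Nt5e had 22, 1 and 2 reads against 615, 688 and 486. It fell (log2 fold change -6.06 ± 0.82 SE, edgeR adjusted p = 0.00577), and the value was -8.34 without knock-out library 1. The libraries were not equally alike. Over 11367 genes with a mean of at least 50 reads, the SD of the log2 difference was 0.202 within the pair of knock-out libraries 2 and 3. It was 0.167 within the pair of wild-type libraries 4 and 6. Knock-out library 1 stood 0.968 and 0.985 from the other two of its genotype, against 0.966, 1.059 and 0.966 from the wild-type libraries. Both close pairs still differed by more than counting noise, with a chi-square per degree of freedom of 3.33 and 3.35. Of the markers that define the labelled cell type, Myh11 summed to 126 knock-out and 7 wild-type reads, Des to 4 and 2, and Myocd to 5 and 2. By library Myh11 had 5, 54 and 67 reads against 3, 3 and 1. Desmin and myocardin transcripts were thus near 0 in both genotypes, and contractile myosin in the wild type and knock-out library 1. Other markers of the list were present in the wild type, Acta2 at 69.2, 51.9 and 101.0 CPM, Smtn at 63.8, 63.6 and 74.4 CPM, Tagln at 16.9, 14.9 and 19.2 CPM and Cald1 at 864.3, 777.8 and 887.2 CPM. The smooth muscle marker list summed to 980.5 to 2515 CPM (counts scaled to a common library depth) in the knock-out and 914.6 to 1095 CPM in the wild type.

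Among the 10 factors, Hand2, Gata6 and Tbx18 rose in the knock-out and Gata4 fell. Hand2 went from a few reads per library to the second highest level of the group, about 48.5-fold. Gata6 and Tbx18 rose 2.06-fold and 1.83-fold, and Gata4 fell to 0.348 of its wild-type reads at equal depth. Tbx3 was lower and Tbx2 mixed, neither passing the test. Tbx20 was present in knock-out libraries 2 and 3 and in no other beyond a single read, and Tcf21, Tbx5 and Hand1 were near or at 0.

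Of the 10 factors, 6 passed the filter on low counts. Hand2 passed it through its knock-out libraries, so its call and its lack of overlap add nothing to the counts that follow. Of the 12660 genes tested, edgeR called 27.8% at an adjusted p under 0.05, 14.1% higher and 13.7% lower in the knock-out, against 3 factors higher and 1 lower. Scaling by total counts in place of TMM gave 1353 higher and 2022 lower genes (40.1% of calls higher in place of 50.7%) and the same 4 factor calls. The genotypes did not overlap for 5 of the 6 tested factors, all but Tbx2, and for 49.7% of tested genes. Without knock-out library 1, which leaves the 2 close libraries as the knock-out group, edgeR called 66.2% of 12817 genes, and 7 of 7 tested factors, with Tbx3 and Tbx2 now lower and Tbx20 higher. Tbx20 entered that fit only through its 2 high knock-out libraries, so its call adds nothing to the count. With libraries of one title stem summed, also 2 samples a genotype, edgeR called 3797 of 13074 genes (29.0%), with Hand2, Gata6, Tbx18 and Tbx20 higher and Gata4 lower. Here too Tbx20 entered only through its knock-out samples, and its call adds nothing to the count. The close pairs lie across different stems. Their libraries 2, 3, 4 and 6 carry 2 as the last number of the title, and libraries 1 and 5 carry 1. The labels do not give the meaning of that number. When each close pair was summed to 1 sample, leaving 2 samples a genotype, edgeR called 17 of 13041 genes (0.13%) and 0 of 7 tested factors. At an unadjusted p under 0.05, that fit held 2640 genes, with 3 factors higher and 1 lower. The log2 fold changes then were 5.62 for Hand2 (edgeR adjusted p = 0.0583), 0.99 for Gata6 (0.173), 0.82 for Tbx18 (0.156) and -1.44 for Gata4 (0.126). Since RNA was taken from bulk cultures, fewer cells of a type and less RNA per cell cannot be told apart.

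**Figure D1:**
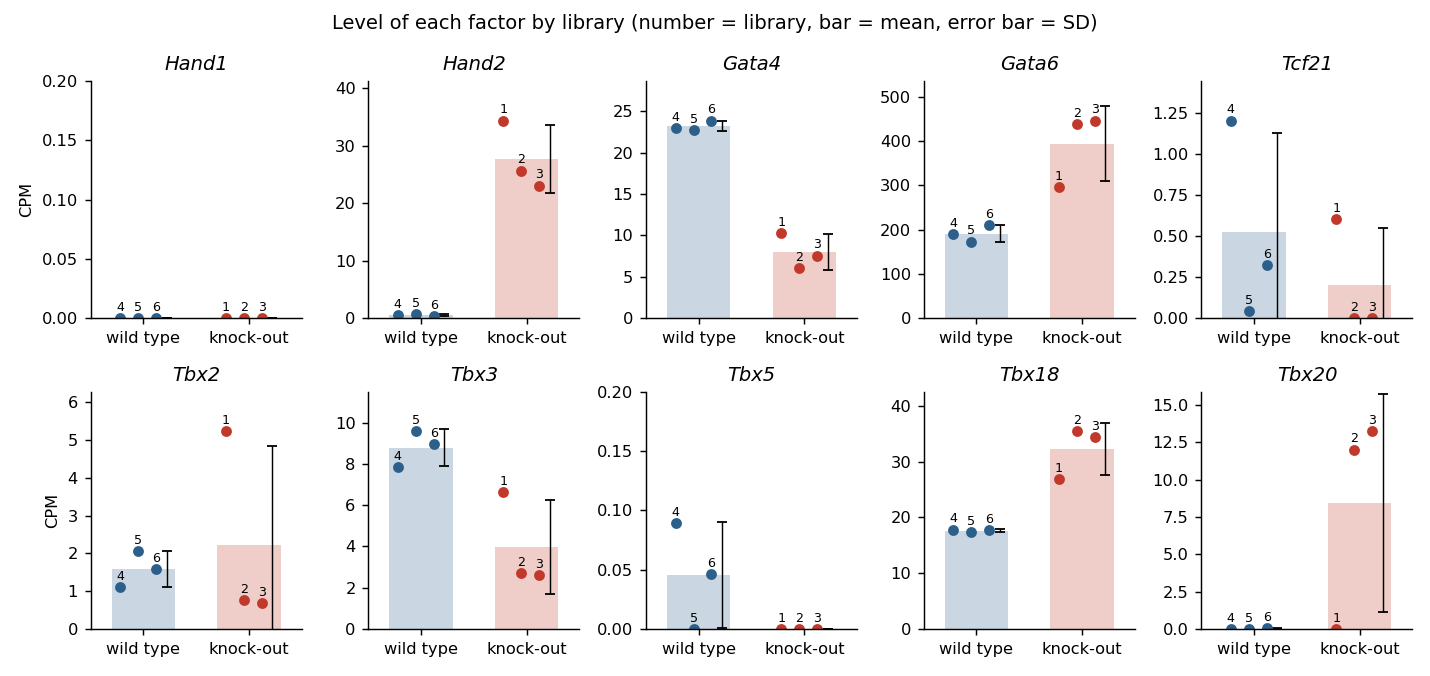
Level of each of the 10 factors in CPM on linear axes that start at 0, with its own scale per gene. Points are single libraries with their number, bars are means over 3 libraries and error bars SD, cut at 0 where they reach below it. Hand2, Gata6 and Tbx18 are higher in all 3 knock-out libraries, Gata4 and Tbx3 lower, Tbx2 is high in knock-out library 1 alone, and Tbx20 lies above 12 CPM in knock-out libraries 2 and 3.

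Per exon length, as the authors' deposited RPKM (reads scaled by exon length and by sequencing depth), Gata6 was the most abundant factor in both genotypes. In the wild type the order of mean RPKM was Gata6 at 49.9, Gata4 at 5.66, Tbx18 at 3.59, Tbx3 at 1.61, Tbx2 at 0.416, Hand2 at 0.228, Tcf21 at 0.213, Tbx5 at 0.00925, Tbx20 at 0.00155 and Hand1 at 0. None of the first 4 overlapped the next in that order, and from Tbx2 on neighbours overlapped. In the knock-out the order was Gata6 at 96.5, Hand2 at 10.7, Tbx18 at 6.19, Gata4 at 1.86, Tbx20 at 0.773, Tbx3 at 0.702, Tbx2 at 0.575, Tcf21 at 0.0819, and Hand1 and Tbx5 at 0. Here too the first 4 did not overlap the next, and from Tbx20 on neighbours overlapped. Hand2 thus moved from rank 6 to rank 2 and Gata4 from rank 2 to rank 4.

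The ratio of 2 factors within a library does not depend on the scaling of libraries. Gata6 to Gata4, in RPKM, was 30.7, 77.6 and 63.0 against 8.84, 8.12 and 9.41. Hand2 to Gata4 was 5.55, 7.07 and 5.08 against 0.0420, 0.0541 and 0.0258, so that the more abundant of the pair was Hand2 in each knock-out library and Gata4 in each wild-type library. Tbx18 to Tbx3 was 4.51, 14.7 and 14.7 against 2.52, 2.02 and 2.20. None of these ratios overlapped between genotypes. This follows from setting a factor higher in every knock-out library over one lower in every knock-out library, and adds nothing to the single values.

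**Figure D2:**
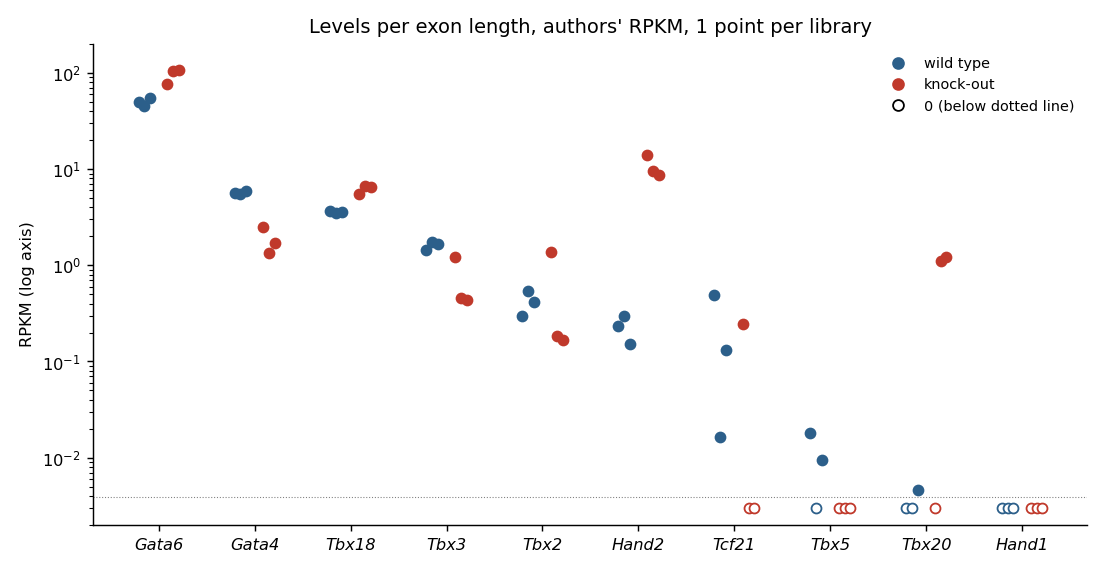
RPKM of the 10 factors on a log axis, ordered by wild-type mean, with 1 point per library and values of 0 drawn as open points below the dotted line. Hand2 in the knock-out, at 8.63 to 13.9 RPKM, lies above every wild-type value of Gata4 (at most 5.86 RPKM), and Tbx20 has 1 open and 2 filled knock-out points.

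Hand2 (ENSMUSG00000038193, chromosome 8, 57320983 to 57324633, plus strand, GRCm38) encodes a bHLH factor of the right ventricle, limb bud and branchial arch mesenchyme. It had 795, 545 and 434 reads against 13, 18 and 8, which is 34.4, 25.7 and 23.1 CPM against 0.580, 0.740 and 0.371 CPM. All 3 knock-out libraries were high, library 1 the highest, and no wild-type library came near them. The mean rose from 0.563 ± 0.185 to 27.7 ± 5.93 CPM (SD, n = 3 each), with edgeR giving a log2 fold change of 5.60 ± 0.31 SE and an adjusted p of 5.16e-04. Leaving out any 1 library gave 5.38 to 5.85, with an adjusted p of at most 0.00861. Spliced reads moved with it, with 130, 66 and 65 exon junction reads against 4, 0 and 1. Intron reads were 14, 5 and 7 against 0 in each wild-type library.

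The 250 bases before the start of Hand2 are printed because Hand2 changed most among the 6 factors that passed the filter and because its promoter can be read for the motifs of the other factors. They are compared here with those of Tbx18, which also rose. The sequences are from RefSeq (GRCm38.p6), whose promoter table held 4 of the 10 factors, and each is written 5′ to 3′ along the gene's strand. Capitals mark matches on either strand to the GATA motif (GATA with A or T before it and A or G after it), the E-box (CANNTG) and the T-box half-site (GGTGTG), and no 2 of these matches overlap. The Hand2 window is chr8:57320733-57320982 on the plus strand.
Hand2: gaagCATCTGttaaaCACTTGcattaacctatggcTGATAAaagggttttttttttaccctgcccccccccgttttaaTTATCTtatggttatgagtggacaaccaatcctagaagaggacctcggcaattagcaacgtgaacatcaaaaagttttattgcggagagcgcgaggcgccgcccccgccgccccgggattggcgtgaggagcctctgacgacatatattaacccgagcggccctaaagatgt
The Tbx18 window is chr9:87731261-87731510 on the minus strand.
Tbx18: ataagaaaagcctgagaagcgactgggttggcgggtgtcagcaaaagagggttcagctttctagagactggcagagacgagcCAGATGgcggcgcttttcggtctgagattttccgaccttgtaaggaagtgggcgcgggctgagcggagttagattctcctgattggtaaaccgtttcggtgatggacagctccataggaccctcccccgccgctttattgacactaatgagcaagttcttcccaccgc
The Hand2 window holds 2 GATA matches, at -215 (TGATAA) and -172 (TTATCT, the motif on the other strand), counted from the start of the gene. It holds 2 E-box matches, at -246 (CATCTG) and -235 (CACTTG), and no T-box half-site. The Tbx18 window holds 1 E-box match, at -168 (CAGATG), and neither of the other motifs. Over 32851 windows of 250 bases of 27025 genes, 26.5% hold a GATA match, 66.2% an E-box and 16.3% the half-site. GC content was 49.2% for Hand2 and 54.0% for Tbx18, beside a median of 52.4% over all windows, and each window held 15 CpG dinucleotides against a median of 6. A match describes the letters only.

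Hand1 (ENSMUSG00000037335, chromosome 11, 57828705 to 57832818, minus strand), the paralog known from left ventricle and extraembryonic mesoderm, had 0 reads in all 6 libraries. A count of 0 allows up to 3 reads, or 0.123 to 0.160 CPM per library, a limit that covers counting error only. Tcf21 (ENSMUSG00000045680, chromosome 10, 22817281 to 22820174, minus strand) had 14, 0 and 0 reads against 27, 1 and 7. Most of its reads were thus in 1 library of each genotype, the groups overlapped, and the summed ratio of knock-out to wild type at equal depth was 0.433 (exact 95% interval 0.215 to 0.826, counting error only). Tcf21 did not pass the filter and was not tested.

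The other genes of the bHLH dimer system were described from a list of 12 partners and inhibitors, of which 10 were tested. edgeR called 4 higher and 0 lower (5 and 1 at an unadjusted p under 0.05, 5 and 1 in DESeq2, 3 and 0 in limma-voom), and the list's median log2 fold change was 0.40, beside 0.02 over all tested genes. Over all tested genes edgeR called 14.1% higher and 13.7% lower, shares that belong beside each list below. A listed gene near 0 in 1 genotype could pass the filter only through the other, and its call adds nothing to a count. Id2 and Id3, which encode inhibitors that bind E-proteins without touching DNA, rose from 29.8 ± 3.31 to 82.6 ± 11.8 CPM (log2 fold change 1.47 ± 0.14, edgeR adjusted p = 0.00200) and from 113.6 ± 13.3 to 245.2 ± 29.2 CPM (1.11 ± 0.13, 0.00400). Tcf12, an E-protein that pairs with HAND factors, rose (log2 fold change 0.39 ± 0.07, edgeR adjusted p = 0.0155). Its call was lost without any 1 of the libraries other than knock-out library 1 (adjusted p up to 0.0813). Twist2, named after its values were seen as the last of the 4, stood at 16.8, 92.2 and 97.1 CPM against 6.60, 2.06 and 6.63 CPM (log2 fold change 3.76, edgeR adjusted p = 0.0215). It lost its call in the same 5 cases (up to 0.0813).

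Gata4 (ENSMUSG00000021944, chromosome 14, 63198922 to 63271692, minus strand) encodes a zinc finger factor of cardiac and visceral mesoderm. It had 238, 128 and 142 reads against 514, 553 and 515, or 10.3, 6.03 and 7.56 CPM against 22.9, 22.7 and 23.9 CPM. The wild-type libraries lay close together, and every knock-out library was below every one of them, library 1 the least. The mean fell from 23.2 ± 0.603 to 7.96 ± 2.16 CPM (log2 fold change -1.54 ± 0.21 SE, edgeR adjusted p = 0.00566), with a range of -1.78 to -1.37 and an adjusted p of at most 0.0353 when 1 library was left out. Junction reads were 60, 45 and 38 against 132, 128 and 134. Intron reads were 13, 9 and 7 against 33, 15 and 21, also lower in each knock-out library. The fall went against its chromosome, since the median log2 fold change over the 427 tested genes of chromosome 14 was 0.40, with 52.0% called.

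Gata6 (ENSMUSG00000005836, chromosome 18, 11052064 to 11085635, plus strand), the GATA factor best known from vascular smooth muscle, was the highest of the group. It had 6845, 9304 and 8385 reads against 4260, 4210 and 4540, or 296.3, 438.5 and 446.1 CPM against 189.9, 173.1 and 210.3 CPM. Knock-out libraries 2 and 3 were about alike, and library 1 lay between them and the wild type without reaching it. The mean rose from 191.1 ± 18.7 to 393.6 ± 84.4 CPM (log2 fold change 1.04 ± 0.18 SE, edgeR adjusted p = 0.0115). The call was lost without wild-type library 4 (1.04, adjusted p = 0.0616) and without wild-type library 5 (0.97, 0.0523). Exon, junction and intron reads gave much the same knock-out to wild-type ratio at equal depth, 2.04, 1.99 and 2.07 (exact 95% interval of the last 1.90 to 2.26, counting error only). The median over the 351 tested genes of chromosome 18 was 0.23. Split by library, that chromosome gave -0.17 for library 1, 0.37 for library 2 and 0.38 for library 3. The log2 ratio of Gata6 to its wild-type mean ran in the same order, at 0.63, 1.2 and 1.22. The part of the chromosome in the lower library 1 value of Gata6 was not tested. Gata4 and Gata6 moved in opposite directions in each of the 3 knock-out libraries relative to every wild-type library.

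Of the other GATA factors and the GATA cofactors, a list of 8, 6 were tested and edgeR called 0 in either direction, with a median of 0.94. At an unadjusted p under 0.05 there were 2 higher and 1 lower, DESeq2 called 1 higher and limma-voom 0. Zfpm1 and Zfpm2, named after their values were seen, encode the FOG proteins that bind GATA4 and GATA6. Zfpm1 stood at 44.2, 163.6 and 170.4 CPM against 59.2, 56.9 and 62.2 CPM (log2 fold change 1.08, edgeR adjusted p = 0.147). Zfpm2 stood at 78.2, 182.9 and 188.3 CPM against 78.2, 70.7 and 78.3 CPM (0.98, 0.0751). For both, knock-out libraries 2 and 3 were high, while library 1 was below every wild-type library for Zfpm1 and within their range for Zfpm2. Gata2 did not pass either (log2 fold change -0.25, edgeR adjusted p = 0.0942).

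**Figure D3:**
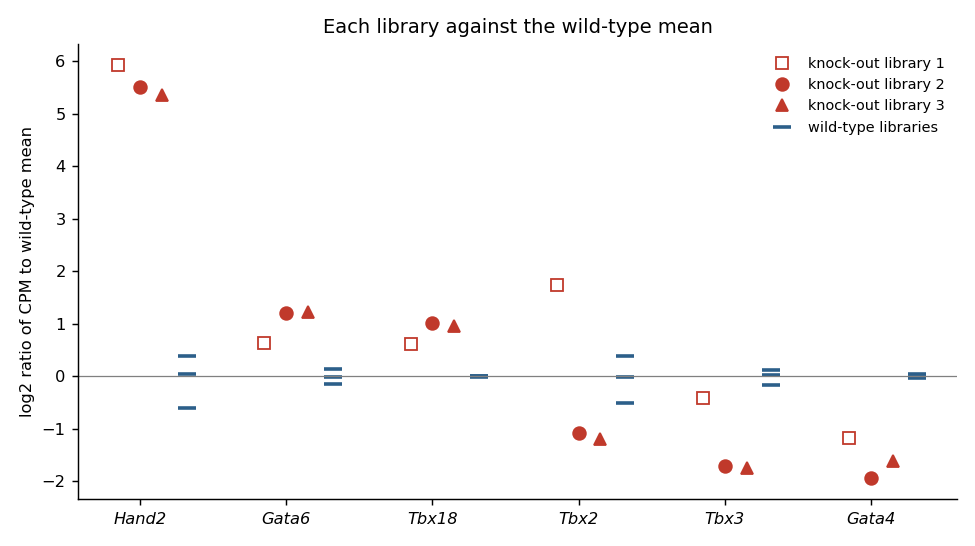
Log2 ratio of the CPM of each library to the wild-type mean for the 6 tested factors, with knock-out library 1 as open squares, 2 as circles, 3 as triangles and the wild-type libraries as bars. Hand2, Gata6, Tbx18, Gata4 and Tbx3 keep 1 side of 0 in all 3 knock-out libraries, though Tbx3 did not pass the test. For Tbx2 library 1 lies above 0 and libraries 2 and 3 below it.

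Tbx18 (ENSMUSG00000032419, chromosome 9, 87702800 to 87731260, minus strand), whose promoter window is printed beside that of Hand2, is a T-box factor of epicardium, sinus node mesenchyme and mural cells. It had 620, 752 and 646 reads against 399, 422 and 382, or 26.8, 35.4 and 34.4 CPM against 17.8, 17.4 and 17.7 CPM. The 3 wild-type libraries were within 1 CPM of each other, and all 3 knock-out libraries were above them. The mean rose from 17.6 ± 0.232 to 32.2 ± 4.69 CPM (log2 fold change 0.87 ± 0.13 SE, edgeR adjusted p = 0.00682), and the call held without any 1 library (0.80 to 0.98, adjusted p at most 0.0429). Junction reads were 96, 145 and 117 against 78, 89 and 69. Intron reads, at 47, 57 and 60 against 49, 52 and 41, overlapped between genotypes. Their ratio at equal depth was 1.25 (exact 95% interval 0.993 to 1.58), below that of the exon reads, 1.82 (1.69 to 1.95), intervals that cover counting error only.

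Tbx18 lies 595.9 kb from Nt5e on the same chromosome. In a window of 1 Mb on either side, chosen after the values were seen, 2 tested genes besides Nt5e fell. They were Cyb5r4 (log2 fold change -0.77, edgeR adjusted p = 0.0117) and Cep162 (-0.73, 0.0155), on the side of Tbx18 away from Nt5e. The call of Cyb5r4 was lost without wild-type library 4 or 6 (adjusted p up to 0.0558) and that of Cep162 without knock-out library 2 or any 1 wild-type library (up to 0.0701). Snx14 (0.14, 0.692), Syncrip (0.02, 0.831) and Zfp949 (0.15, 0.376), on the side of Nt5e, did not pass. Nor did Mthfsl on that side (-0.61, 0.0829), whose knock-out libraries were all below the wild type, or Prss35 on the other (-0.91, 0.556). No other tested gene of the window rose, and the median over the 715 tested genes of the chromosome was -0.11.

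Tbx20 (ENSMUSG00000031965, chromosome 9, 24718138 to 24774303, minus strand) encodes a T-box factor of working myocardium, endocardium and cushion mesenchyme. It had 0, 255 and 249 reads against 0, 0 and 1, or 0, 12.02 and 13.3 CPM against 0, 0 and 0.0463 CPM. The genotypes overlapped at 0, since knock-out library 1 had no read where 3 reads would be 0.130 CPM. Reads also crossed splice junctions in libraries 2 and 3 alone, 36 and 32 of them. The gene was kept out of the test by the filter, which asks for enough reads in 3 libraries. Over all 3 knock-out libraries the ratio to the wild type at equal depth was 545.7 (exact 95% interval 97.5 to 21600, counting error only, on 1 wild-type read). It was tested where a fit had another filter or group size. There it passed without knock-out library 1 (edgeR log2 fold change 9.27, adjusted p = 7.95e-06), with title stems summed (8.99, 0.00923) and with no filter (8.69, 0.045). It did not pass without wild-type library 4 (8.25, edgeR adjusted p = 0.152), 5 (8.20, 0.144) or 6 (10.53, 0.178). Without library 1 the knock-out group is the 2 close libraries. In each of these fits that had a filter, the gene entered only through its knock-out reads, so a call there adds no support. Its 250 bases before the start, chr9:24774304-24774553 on the minus strand in RefSeq (GRCm38.p6), are shown for contrast with the windows of Hand2 and Tbx18.
Tbx20: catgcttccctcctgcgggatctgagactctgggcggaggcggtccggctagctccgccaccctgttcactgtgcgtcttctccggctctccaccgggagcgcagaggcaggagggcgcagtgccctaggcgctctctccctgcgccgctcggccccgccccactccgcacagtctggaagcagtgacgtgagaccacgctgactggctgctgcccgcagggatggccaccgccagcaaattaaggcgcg
The window has no capitals because it holds no match to the GATA, E-box or T-box half-site letters. Its GC content was 68.8%, with 22 CpG dinucleotides.

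Tbx3 (ENSMUSG00000018604, chromosome 5, 119670669 to 119684724, plus strand), a repressor of the conduction system and limb, had 153, 57 and 49 reads against 176, 233 and 193. In CPM this was 6.62, 2.69 and 2.61 against 7.85, 9.58 and 8.94. Library 1 lay just under the lowest wild-type library and the other two far below. The log2 fold change was -1.14 ± 0.40 SE and did not pass (edgeR adjusted p = 0.0840). It passed without knock-out library 1 (-1.74, 1.36e-04), in DESeq2 (-1.15, 0.0321), in limma-voom (-1.24, 0.0421) and with the last number of the titles as a covariate (-1.27, edgeR adjusted p = 0.0251).

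Tbx2 (ENSMUSG00000000093, chromosome 11, 85832551 to 85841948, plus strand), the close relative of Tbx3, had 121, 16 and 13 reads against 25, 50 and 34. In CPM this was 5.24, 0.754 and 0.692 against 1.12, 2.06 and 1.58. Library 1 stood above and libraries 2 and 3 below every wild-type library. The log2 fold change of 0.50 ± 0.85 SE did not pass (edgeR adjusted p = 0.686), and it was -1.13 (0.0331) without knock-out library 1. Tbx5 (ENSMUSG00000018263, chromosome 5, 119832668 to 119885219, plus strand), the forelimb and left heart factor beside Tbx3, had 0, 0 and 0 reads against 2, 0 and 1, at or under the floor of 3 reads.

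Among the other T-box genes, a list of 12 in the table, 4 were tested, with 1 called higher, 1 lower and a median of 0.50. Tbx15, known from limb and trunk mesenchyme, rose from 38.7 ± 2.16 to 75.3 ± 15.4 CPM (log2 fold change 0.96 ± 0.15, edgeR adjusted p = 0.00896). Tbx1, a factor of the pharyngeal arches and second heart field, had 0 knock-out and 180 wild-type reads, at least 55.4-fold lower against a floor of 3 reads over the group (edgeR adjusted p = 0.00369). Tbx1 passed the filter only through its wild-type libraries, so its call adds nothing to the count. Tbx4, which lies 44.5 kb from Tbx2, had 21, 0 and 0 reads against 0, 3 and 0 and was not tested. As with Tbx2 and Tcf21, the knock-out reads of Tbx4 were mostly or all in library 1.

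Genes known as targets of these factors, a list of 19 in the table, included 12 tested, with 3 called higher, 2 lower and a median of -0.04. Over all tested genes 14.1% were called higher and 13.7% lower, and the part of the factors in these genes was not tested. Dab2, an endocytic adaptor and GATA6 target in endoderm, fell from 456.3 ± 8.89 to 147.5 ± 6.58 CPM (log2 fold change -1.63 ± 0.07, edgeR adjusted p = 3.36e-04), the reverse of the direction of Gata6. Cdkn1a, which encodes the cell cycle inhibitor p21 and which TBX2 and TBX3 repress, rose from 113.1 ± 3.17 to 212.1 ± 12.6 CPM (0.91 ± 0.07, 0.00144). Smad6, an inhibitory SMAD, rose (log2 fold change 1.72 ± 0.20, edgeR adjusted p = 0.00359). Adamts1, a matrix protease, rose (3.30 ± 0.79, edgeR adjusted p = 0.0294) and Kcnj2, an inward rectifier potassium channel, fell (-4.30 ± 0.85, 0.0169). Leaving out knock-out library 2, knock-out library 3, wild-type library 4 or wild-type library 6 ended both calls, and leaving out library 5 ended that of Adamts1 (adjusted p up to 0.117 and 0.0763). Kcnj2 passed the filter through its wild-type libraries, so its call adds nothing to the count. The myocardial targets Bmp10, Myh6 and Actc1 had 0 reads in all 6 libraries.

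Inducers of these factors, 21 signalling genes in the table of which 16 were tested, had 9 called higher, 3 lower and a median of 0.55, beside 14.1% higher and 13.7% lower over all tested genes. Bmp4, a BMP ligand that induces Hand2, Gata and T-box genes in embryonic mesoderm, stood at 191.1, 170.9 and 159.8 CPM against 47.8, 32.2 and 50.5 CPM (log2 fold change 2.00 ± 0.19, edgeR adjusted p = 0.00217). Smad9, a BMP-responsive SMAD, rose (log2 fold change 1.43 ± 0.11, edgeR adjusted p = 0.00134), as did Rarg, a retinoic acid receptor (1.2 ± 0.08, 7.44e-04). The retinaldehyde dehydrogenase Aldh1a1 fell from 1719 ± 102.5 to 410.9 ± 125.6 CPM (-2.06 ± 0.23, edgeR adjusted p = 0.00327). Aldh1a2, the retinoic acid enzyme of mesothelium and epicardium, fell as well (-4.85 ± 1.28, edgeR adjusted p = 0.0386), as did Fgf8 (-4.88 ± 1.05, 0.0216). Both were lost as calls without any 1 library other than knock-out library 1 (adjusted p up to 0.134 and 0.0877) and stood at -9.04 and -8.96 without that library. Aldh1a2 and Fgf8 passed the filter through their wild-type libraries. Aldh1a3, called higher and named only for this, passed it through its knock-out libraries. The calls of these genes add nothing to the counts.

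Other mesodermal, limb and neural crest transcription factors, 41 in the table, included 28 tested, with 13 called higher, 4 lower and a median of 0.93, beside 14.1% higher and 13.7% lower over all tested genes. Foxc2, a forkhead factor of vessel wall and paraxial mesoderm, rose from 10.5 ± 0.232 to 25.1 ± 3.15 CPM (log2 fold change 1.25 ± 0.12, edgeR adjusted p = 0.00228). Mef2a, a MADS-box factor of muscle, rose (log2 fold change 0.67 ± 0.07, edgeR adjusted p = 0.00260), as did Irx5, an Iroquois factor (1.45 ± 0.19, 0.00518). Foxf1, a forkhead factor of visceral mesoderm, fell (log2 fold change -1.29 ± 0.18, edgeR adjusted p = 0.00635), and so did Bnc1, a zinc finger factor of mesothelium and other epithelia (-0.69 ± 0.09, 0.00487). Wt1, the Wilms tumour factor of mesothelium and epicardium, stood at 3.64, 0.566 and 0.160 CPM against 30.3, 25.9 and 33.7 CPM (log2 fold change -4.33 ± 0.94, edgeR adjusted p = 0.0217). Its call was lost without knock-out library 2 or any 1 wild-type library (adjusted p up to 0.0812), and it was -6.31 without knock-out library 1. Wt1 passed the filter through its wild-type libraries. Tfap2a and Pax3, called higher and named only for this, passed it through their knock-out libraries. The calls of these genes add nothing to the counts.

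**Figure D4:**
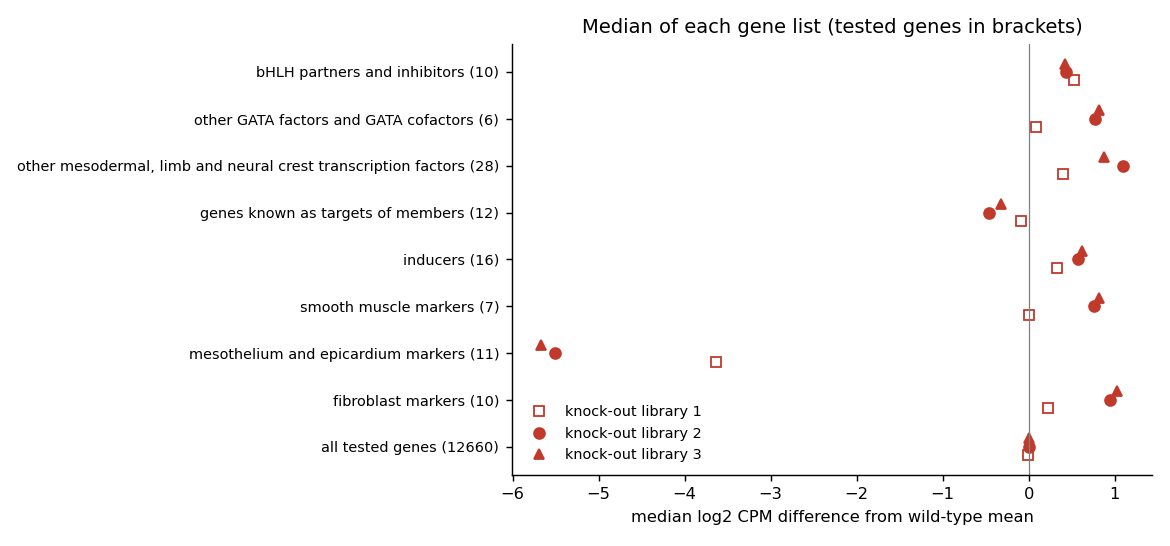
Median log2 CPM difference of each list from the wild-type mean, by knock-out library, for lists with at least 5 tested genes and for all 12660 tested genes. The medians of the mesothelium and epicardium markers, -3.63, -5.51 and -5.67 in libraries 1, 2 and 3, lie apart from those of the factor lists.

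Several of the factors are known from more than one cell type of the heart and vessel wall, so the markers of those types are given beside them. Of 12 mesothelium and epicardium markers 11 were tested, and edgeR called 0 higher and 10 lower, as did DESeq2, limma-voom and an unadjusted p under 0.05. Muc16, Krt8 and Wt1 passed the filter through their wild-type libraries, so their calls add nothing to that count. The other markers are those to read beside the 13.7% called lower over all tested genes. These markers as a list had the following values. Their median was -5.02, or -4.63 with the 2 genes of 0 knock-out reads at their bound, and their sum was 284.0 to 950.1 CPM in the knock-out against 3590 to 3907 CPM in the wild type. Upk3b, a uroplakin of mesothelium, fell from 500.0 ± 15.9 to 42.7 ± 4.98 CPM (log2 fold change -3.55 ± 0.11, edgeR adjusted p = 1.25e-04) and stayed a call with close pairs summed (0.0397). Krt19 and Cldn15, epithelial keratin and claudin genes, fell too (log2 fold change -5.83 ± 0.31, edgeR adjusted p = 4.63e-04, and -5.42 ± 0.47, 0.00165). Muc16 and Krt8 had no knock-out read and 7430 and 43 wild-type reads, at least 2287-fold and 13.2-fold lower, and Krt8 lost its call without any 1 wild-type library (edgeR adjusted p up to 0.0683). The part of these markers in the values of Gata4, Tbx18 or the other factors was not tested.

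Of 12 cardiomyocyte markers 3 were tested, with 1 called higher and 1 lower, and Myh6, Myl2, Myl3 and Actc1 were at 0 in every library. Tnnt2, cardiac troponin T, stood at 8.05, 28.1 and 27.4 CPM against 0.134, 0.123 and 0.510 CPM (log2 fold change 6.36 ± 0.79, edgeR adjusted p = 0.00453). Myl7, the atrial light chain, fell (log2 fold change -5.15 ± 0.81, edgeR adjusted p = 0.00871). Tnnt2 passed the filter through its knock-out libraries and Myl7 through its wild-type libraries. Their calls therefore add nothing to the count, beside 14.1% called higher and 13.7% lower over all tested genes. The sum of the list was 9.44 to 29.6 CPM in the knock-out and 7.98 to 8.76 CPM in the wild type. For the neural crest and Schwann list, 2 of 6 were tested and edgeR called 0 (also 0 at an unadjusted p under 0.05, in DESeq2 and in limma-voom), the sums were 3.25 to 6.02 CPM and 4.73 to 6.13 CPM, and Sox10 and Foxd3 were at 0.

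Of 10 fibroblast markers, all tested, edgeR called 2 higher and 0 lower (4 and 0 at an unadjusted p under 0.05, 5 and 0 in DESeq2, 1 and 0 in limma-voom), with a median of 0.74 and sums of 5645 to 10400 CPM against 5109 to 5362 CPM. They were Pi16 (log2 fold change 4.95, edgeR adjusted p = 0.00702) and Pdgfra (0.50, 0.0484), the latter lost without any 1 library other than knock-out library 1 (up to 0.171). For smooth muscle, 7 of 10 were tested, with Smtn called higher (log2 fold change 0.55, edgeR adjusted p = 0.0296) and Cnn1 lower (-2.45, 0.0246). At an unadjusted p under 0.05 there were 4 higher and 1 lower, likewise 4 and 1 in DESeq2, and 1 and 1 in limma-voom. Leaving out knock-out library 2, knock-out library 3, wild-type library 4 or wild-type library 6 ended both calls, and leaving out library 5 ended that of Smtn (edgeR adjusted p up to 0.119 and 0.0879). Acta2 stood at 73.8, 545.9 and 524.5 CPM against 69.2, 51.9 and 101.0 CPM (2.36, 0.0633), so that library 1 lay in the wild-type range, as it did for Zfpm2 and Tbx20. Endothelial markers summed to 5.497 to 26.2 CPM against 3.29 to 8.96 CPM, with 2 of 10 tested and Kdr called higher (3.17, edgeR adjusted p = 0.0139, up to 0.0674 without wild-type library 5 or 6) while Tie1 and Cldn5 were at 0. Leukocyte markers summed to 6.36 to 16.8 CPM against 4.401 to 7.0 CPM, with 3 of 8 tested, Lyz2 higher (2.57, edgeR adjusted p = 0.0156, up to 0.0728 on leaving out library 2, 3, 5 or 6), Cd68 lower (-2.33, 0.00704), and Ptprc, Adgre1 and Itgam at 0. Pi16 and Kdr passed the filter through their knock-out libraries, and Cnn1 and Cd68 through their wild-type libraries, so their calls add nothing to the counts. The part of these cell types in the factors' values was not tested.

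The genes whose profile over the 6 libraries was most like that of each factor were found by root mean square distance between mean-centred log2 CPM, among 11367 genes. For Gata6 they were Wwtr1 (0.045), Gab1 (0.046) and Slc25a32 (0.051), and for Tbx18 Khnyn (0.032), Mdm2 (0.035) and Septin7 (0.048). Wwtr1, which encodes the Hippo pathway coactivator TAZ, had 216.0, 320.9 and 317.2 CPM against 146.1, 120.4 and 155.2 CPM, the same order of genotypes and libraries as Gata6 but for knock-out libraries 2 and 3. For Gata4 the nearest were Prxl2b (0.053), Tmem41a (0.123) and Ccpg1os (0.125), and for Tbx3 Kifc3 (0.061), Gsap (0.083) and Cobl (0.088). Hand2 had no neighbour this close. The distance is not scaled to the size of a change, which was largest for Hand2 among the tested factors. The nearest to Hand2 were Naalad2 (0.404), Mecom (0.436) and Cspg4 (0.516), and Mecom stood at 58.9, 28.5 and 25.5 CPM against 1.29, 1.36 and 1.07 CPM. These distances describe 6 libraries, of which 2 pairs are nearly alike.

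Genes next to the factors were read for changes that a whole region shares. Within 250 kb of a factor there were 40 pairs of factor and neighbour, 19 of them with a tested neighbour, of which edgeR called 6 higher and 0 lower (7 and 2 at an unadjusted p under 0.05, 7 and 1 in DESeq2, 6 and 1 in limma-voom, where the 1 is Tbx3 beside Tbx5). Over all 12660 tested genes edgeR called 27.8%, 14.1% higher and 13.7% lower. DESeq2 called 4654 genes and limma-voom 3568 in either direction. Of the neighbours of Hand2, 3 were tested and edgeR called 0 (Galnt7, Sap30 and Hmgb2, adjusted p 0.368, 0.168 and 0.941), with 0 also at an unadjusted p under 0.05, in DESeq2 and in limma-voom. Around Gata4, which fell, Wdfy2 (log2 fold change 0.98, edgeR adjusted p = 0.00835) and Mtmr9 (0.45, 0.00727) rose, the latter not without wild-type library 4 (0.05002), and the nearer Fdft1 and Neil2, at 19.3 and 5.07 kb, did not pass. Around Hand1, at 0 reads itself, Galnt10 (0.55, edgeR adjusted p = 0.00758), Sap30l (0.44, 0.0225) and Larp1 (0.33, 0.0246) rose, and the last 2 lost their calls without any 1 library other than knock-out library 1 (up to 0.0829 and 0.118). Near Tbx20, Dpy19l1 rose (0.61, edgeR adjusted p = 0.0102), not without wild-type library 4 (0.0588). All 10 factors had the same coordinates in GENCODE M21, where Hand2, Gata6, Tbx3, Tbx18 and Tcf21 overlap a gene on the opposite strand. How the counting treated strand is not stated in the sources used here, so reads of such a pair cannot be told apart, and the partner of Tbx18, D030062O11Rik, had 0 reads.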

How the data were processed

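RNA was measured in 6 poly(A)-selected libraries prepared with a stranded kit (total RNA input 1 ug), per the labels' protocols. The deposited table gives whole-number read counts per gene made by the authors (exon, unique exon, junction and intron reads), exon lengths and, beside them, RPKM values by the authors, which were used only to compare levels between genes. The submitters' processing notes name the build GRCm38 (mm10). No source used here names the aligner or counter. Of exon reads, 97.41% to 97.58% were unique, and 9384 genes had 0 in every library.

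The test of exon reads was that of edgeR 4.0.16 under R 4.3.3 (filterByExpr with a minimum count of 10, TMM scaling, quasi-likelihood F test on genotype, Benjamini-Hochberg adjustment over all tested genes, threshold 0.05), after the scripts were tested on simulated data. CPM use the TMM-scaled library size, log2 CPM a prior count of 2, and the SE is the fold change over the root of F. Intervals are exact binomial (scipy 1.17.1). Alternatives used DESeq2 1.42.0, limma 3.58.1 (voom), other scalings, filters and library sums, and title numbers, whose meaning the labels do not give, as covariates. Plots used matplotlib 3.10.9 in Python 3.11.15.

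The factors, the gene lists and the alternatives were chosen with earlier results of these data known. Named genes are Nt5e, the 10 factors, up to 3 called rises and 3 called falls of smallest adjusted p per list, called genes of at most 2 reads in a genotype, called or overlapping neighbours within 250 kb, and the 3 genes of nearest profile to each tested factor with a mean of at least 50 reads. Those named outside this rule are said to be so, or are marker genes given to check the labelled cell type.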

Additional observations from a re-analysis of the deposited data

How the results depend on the processing

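Over 17 alternatives, the log2 fold change of Hand2, Gata4, Gata6, Tbx18 and Tbx3 kept its direction in every one. The calls of Hand2, Gata4 and Tbx18 were kept in 16 of 17 and that of Gata6 in 14, the exceptions being the summed close pairs and, for Gata6, the fits without wild-type library 4 or 5. Tbx2 reversed, to -0.05 in limma-voom, -0.08 with the last title number as covariate and -1.13 without knock-out library 1, and ran from -1.13 to 0.92 as libraries were left out in turn. The count of genes called was 17 with close pairs summed, where edgeR called 0 factors higher and 0 lower (3 and 1 at an unadjusted p under 0.05), and 1120 to 8486 as libraries were left out. Factors called lower were 2 in DESeq2, in limma-voom and with the last title number as covariate, where Tbx3 joined Gata4, and 1 to 3 as libraries were left out. The causes of these shifts were not tested. Summing title stems, which also left 2 samples a genotype, gave 3797 called genes. Depth limits Hand1, Tbx5 and Tcf21, for which a change could not be detected below a few reads per library. The labels' sample numbers, 1 to 3 and 4 to 6, pair no libraries across genotypes. The title numbers that both genotypes carry were fitted as covariates, with 3122 genes called for the number after p and 4510 for the last number.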
